A study of Mus musculus with 13 samples.

Results

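The data are read counts from RNA sequencing of 13 mouse libraries, and the report follows 9 complement genes (C2, C3, C4b, C6, C7, Cfb, Cfd, Masp1 and Serping1) out of 23418 genes counted. They were chosen by name as components and regulators of complement that stromal cells make, with earlier results of these data known. Their counts and medians beside those of all genes are therefore descriptions. All 9 were present and passed the filter on low counts. The groups were FAPs of skeletal muscle (4 libraries, numbered 2 to 5), FAPs of lung (5 libraries, numbered 1 to 5) and MEFs (4 libraries, numbered 1 to 4). FAP stands in the field for fibro/adipogenic progenitor, a tissue-resident mesenchymal cell, and MEF for mouse embryonic fibroblast. The labels give no genotype, strain, age, sex, treatment, sort or culture for any group, and the series' parabiosis experiments are not analysed here. They do not say that replicates came from separate animals or cultures, so the p-values may reflect technical spread between these samples and no more. The stated aim of the sequencing was to find FAP transcripts that drive satellite cells, which are muscle stem cells, to differentiate.

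Complement is a cascade of plasma proteins that tags surfaces for removal and can pierce membranes. The classical and lectin routes cleave C4 and C2 to form a convertase, and the alternative route forms one from C3 and factor B after cleavage by factor D. Both convertases cleave C3, and the terminal proteins, among them C6 and C7, then assemble the membrane attack complex. The liver supplies most of these proteins in plasma, and fibroblasts of many tissues make several of them locally.

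Total counts were 41327292 to 44699463 in the muscle FAPs, 28636183 to 35464622 in the lung FAPs and 33756915 to 41466585 in the MEFs, so 3 reads over a group correspond to 0.0220, 0.0180 and 0.0166 CPM. Levels are in CPM, the read count relative to the library total after TMM scaling. A gene passed at an adjusted p under 0.05 in edgeR's quasi-likelihood test. Of 8 fibroblast markers, Pdgfra, Ly6a, Cd34, Dcn, Lum, Col1a1, Col1a2 and Pdgfrb, the summed level was 53268 to 66305 CPM in the muscle FAPs, 24020.2 to 41719 in the lung FAPs and 5291 to 6285 in the MEFs, with no marker at 0. Lung FAP 2 had the lowest of the FAP sums together with the highest endothelial sum of all libraries, at 614 CPM. Lung FAP 3 had a summed level of 8467 CPM over 8 lung epithelium markers, against 16.7 to 96.0 in the other lung FAPs, and 615 CPM of the blood marker Lyz2, against 5.15 to 7.45 in the other lung FAPs. Its other 9 blood markers summed to 53.1 CPM, within the 32.0 to 60.3 of the other lung FAPs. In bulk RNA, more cells that make a transcript and more transcript per cell cannot be told apart.

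C3, Serping1, C7, C4b, Cfb and C2 were abundant in both kinds of FAP and scarce in the MEFs, Masp1 was highest in the MEFs, and Cfd and C6 were low throughout. The 9 genes together took 0.826% ± 0.0399 of all counts in the muscle FAPs (SD, n = 4), 2.13% ± 0.292 in the lung FAPs (n = 5) and 0.00933% ± 0.000712 in the MEFs (n = 4). Against MEFs, 8 of 9 genes were higher and 1 was lower in the muscle FAPs, where 73.5% of all 15412 tested genes passed in either direction (36.1% higher and 37.3% lower). Against MEFs, 8 were higher and 1 was lower in the lung FAPs as well, where 74.4% of all genes passed (37.8% higher and 36.6% lower). These comparisons share the MEF libraries. C6 and Cfd entered the test through their lung FAP values, since none and 2 of the 4 muscle FAP libraries and none of the MEFs reached the filter's level. Among the other 7 members, 6 were higher and 1 was lower in each kind of FAP than in the MEFs. Their median log2 fold change was 8.21 for muscle FAPs against MEFs and 9.57 for lung FAPs against MEFs, beside medians of −0.04 and 0.02 over all tested genes.

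Between the FAPs, most complement genes were lower in muscle. Of the 9 genes, 7 were lower in the muscle FAPs than in the lung FAPs, 1 was higher and 1 did not pass (edgeR), where 48.2% of all tested genes passed (25.0% lower and 23.2% higher). Without C6 and Cfd, 5 of 7 were lower, 1 was higher and 1 did not pass, with a median log2 fold change of −1.22 beside −0.04 over all tested genes. The lower genes were C3, Cfb, Cfd, C2, C4b, C6 and C7. Scaled by library size alone, the median of all genes moved to −0.44, and the split of all calls was 1730 higher and 7455 lower in place of 3574 and 3850. Masp1 then no longer passed and Serping1 passed as lower, which made 8 members lower and 0 higher. For muscle FAPs against MEFs that scaling moved the median of all genes to −0.62 and the split to 3757 higher and 8089 lower, in place of 5570 and 5756. Markers of several other cell types were lower in the muscle FAPs as well. These were 7 of 7 tested endothelium markers, 6 of 6 of mesothelium, 8 of 8 of blood, 6 of 6 of adipocytes and 6 of 8 of pericytes and smooth muscle. Fewer were lower in the remaining lists, with 3 of 6 tested markers of lung epithelium, 1 of 3 of hepatocytes and 1 of 5 of muscle fibre. Of 8 fibroblast markers, 5 were higher and none was lower. The pericyte and smooth muscle list summed to 77.7 to 88.1 CPM in the muscle FAPs, 329 to 1979.6 in the lung FAPs and 2225 to 3855 in the MEFs. The part of these markers in the result was not tested.

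**Figure D1:**
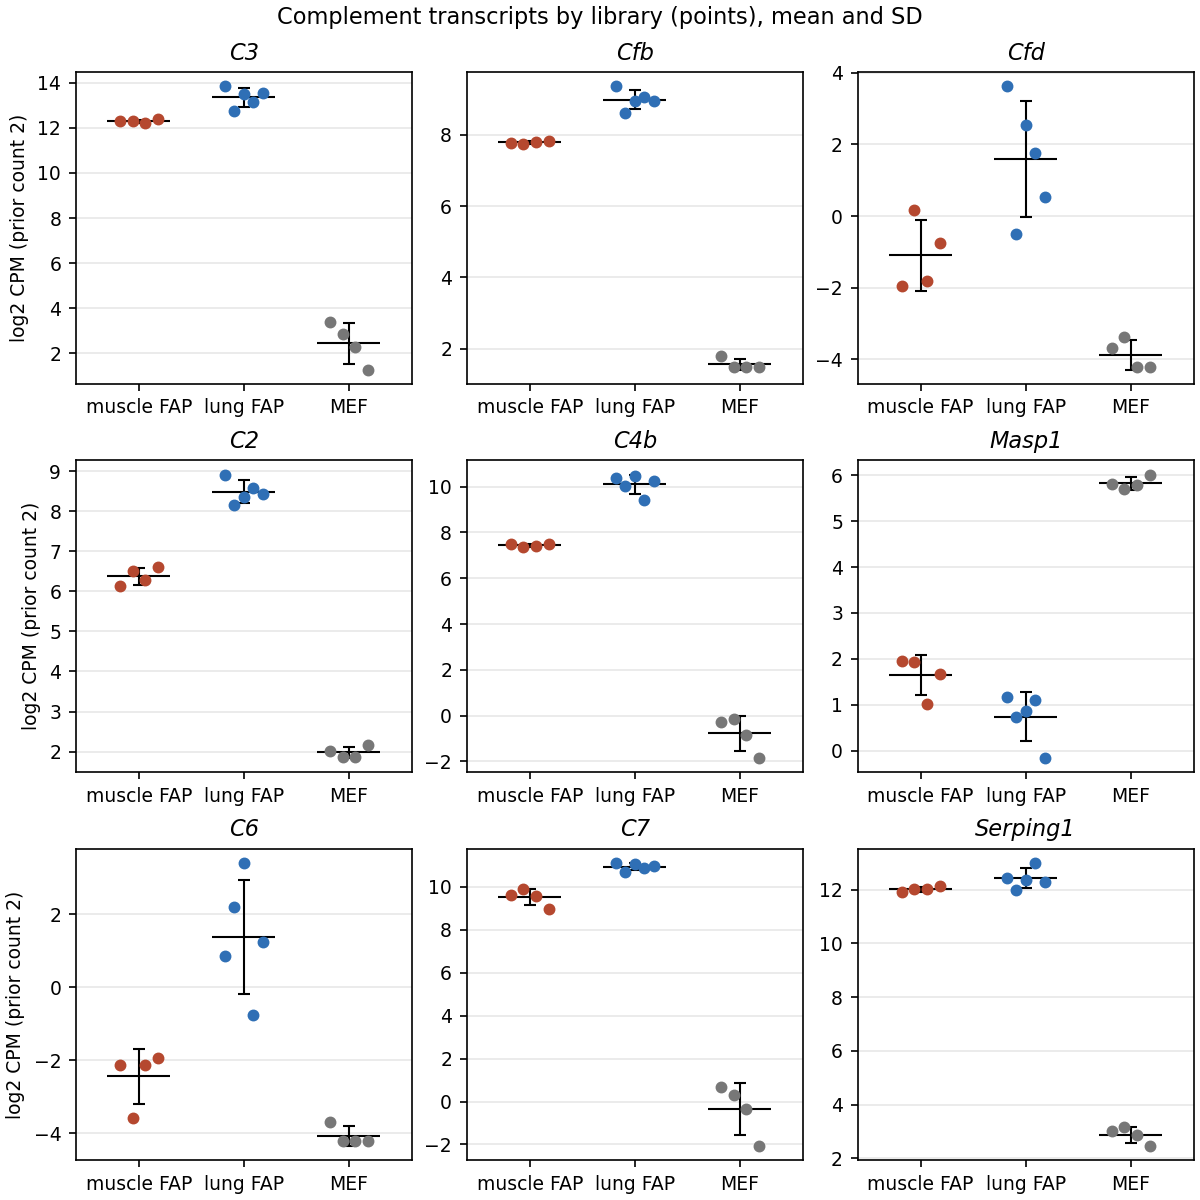
Levels of the 9 complement genes as log2 CPM (prior count 2) on the vertical axes, with each point a library and the line and bar the mean and SD of muscle FAPs (4), lung FAPs (5) and MEFs (4). MEFs lie below both kinds of FAP in every panel but that of Masp1, where they lie above. In the C6 panel muscle FAP 3 and MEF 1 hold 1 read each, so their order reflects scaled library size only.

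**Figure D2:**
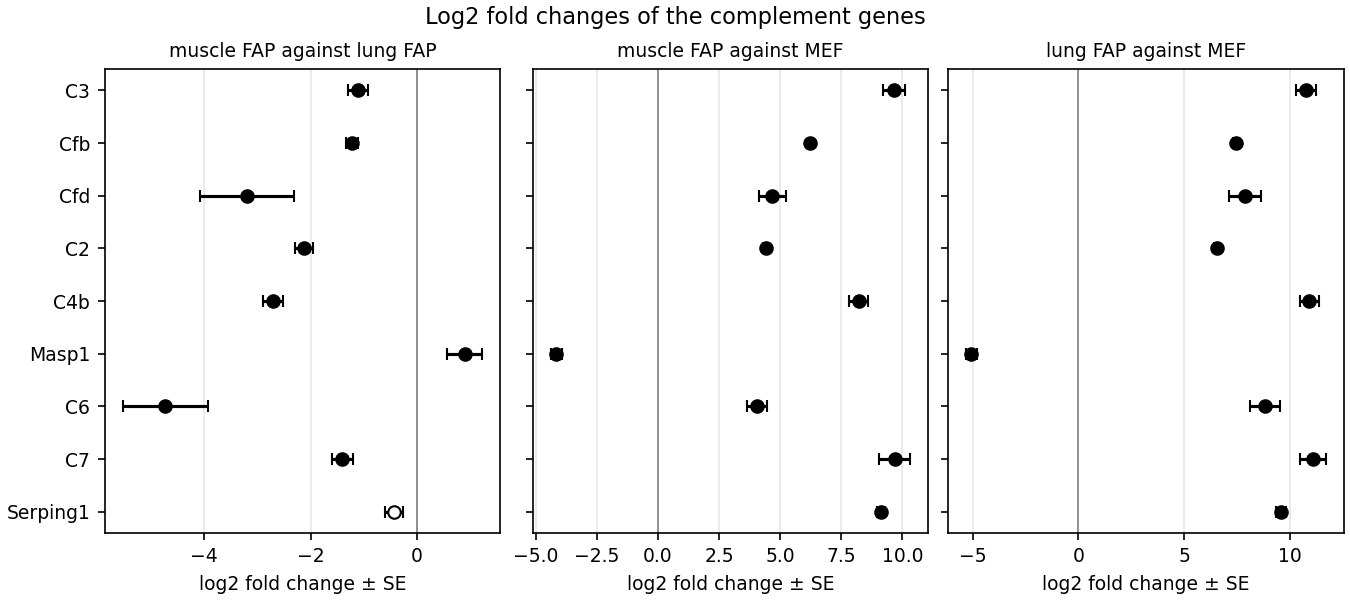
Log2 fold changes of the 9 genes from edgeR, with SE bars, for the 3 comparisons; filled points passed at an adjusted p under 0.05 and the open point did not. In muscle FAPs against lung FAPs 7 genes lie below 0 and pass, and Masp1 alone lies above 0. Of these 7, C6 and Cfd entered the test through their lung FAP values.

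C3 is the central component, cleaved by every route. It lies on chromosome 17 (mm10, 57203970 to 57228136, minus strand, ENSMUSG00000024164). C3 stood at 5019, 5037, 4693 and 5346 CPM in muscle FAPs 2 to 5, at 14631, 6867, 11589.7, 9141 and 11844 CPM in lung FAPs 1 to 5, and at 10.5, 7.28, 4.79 and 2.38 CPM in MEFs 1 to 4. The muscle FAPs were nearly level, the lung FAPs spread over 2.13-fold, and no groups overlapped. C3 was 2.15-fold lower in the muscle FAPs than in the lung FAPs (log2 fold change of −1.11 with an SE of 0.19, edgeR adjusted p = 0.0099). Without lung FAP 1 and 3, a pair chosen after seeing the data for high Cfd and C6, it was at −0.89 and did not pass (edgeR adjusted p = 0.0553; over all alternatives the log2 fold change ran from −1.49 to −0.89 and the adjusted p from 0.000497 to 0.0553). Against MEFs the level was 805-fold higher in the muscle FAPs (log2 fold change of 9.65 with an SE of 0.46, edgeR adjusted p = 1.20e-10) and 1733-fold higher in the lung FAPs (10.76, SE 0.49, adjusted p = 4.93e-11). C3 alone held 0.399% ± 0.0279 of all counts in the muscle FAPs and 1.12% ± 0.251 in the lung FAPs. These shares are of raw totals, so they lie further apart than the TMM-scaled levels. Markers of mesothelium, the lining of the lung, summed over 6 genes to 948 CPM in lung FAP 1, also the highest library for C3, and to 415 to 733 CPM in the remaining lung libraries, with 1.21 to 28.2 CPM in the muscle FAPs and 119.6 to 157 in the MEFs. Lung FAP 3 had the lowest of these lung sums, at 415 CPM, and stood above lung FAP 4 in C3, where the sum was 607 CPM. The part of these markers in the result was not tested.

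The promoters of C3 and C7 are shown because these are the most abundant members with an entry in the RefSeq promoter table, which holds 4 of the 9 genes (C3, C6, C7 and Cfd). Each runs from 250 bases before to 50 bases after the annotated start, 5′ to 3′ on the gene's strand, in build GRCm38.p6, at chr17:57228087-57228386 for C3 and chr15:5063724-5064023 for C7, both on the minus strand. Capitals mark matches, on either strand, to a C/EBP motif (TTGCNNAA), a STAT-type GAS motif (TTCNNNGAA), an ISRE (GAAA, any 2 bases, GAAA) or a TATA box (TATAAA).
C3: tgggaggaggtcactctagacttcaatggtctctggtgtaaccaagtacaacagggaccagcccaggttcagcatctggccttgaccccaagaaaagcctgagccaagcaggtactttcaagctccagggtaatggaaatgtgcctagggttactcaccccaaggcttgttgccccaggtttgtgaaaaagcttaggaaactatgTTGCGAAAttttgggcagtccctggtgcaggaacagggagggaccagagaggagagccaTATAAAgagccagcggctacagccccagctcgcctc
C7: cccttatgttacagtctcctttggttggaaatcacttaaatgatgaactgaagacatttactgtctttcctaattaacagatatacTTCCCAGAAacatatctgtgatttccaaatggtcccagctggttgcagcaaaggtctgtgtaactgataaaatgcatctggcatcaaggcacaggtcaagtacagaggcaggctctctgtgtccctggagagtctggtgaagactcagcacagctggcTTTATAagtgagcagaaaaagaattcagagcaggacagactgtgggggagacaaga
The C3 window held a C/EBP match at bases 206 to 213 and a TATA box match at bases 265 to 270, past the annotated start. The C7 window held a GAS match at bases 87 to 95, which reads as a match on both strands, and a TATA box match on the opposite strand at bases 245 to 250. No ISRE match lay in either, and the windows of C6 and Cfd held none of the 4 motifs. Of all 32851 promoters in the table, 10.8% held the C/EBP motif, 8.3% the GAS motif, 3.4% the ISRE and 13.6% the TATA box. A match is a description of these letters only.

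Factor B, encoded by Cfb, carries the protease of the alternative convertase. Cfb stood at 219.7, 214, 223 and 228 CPM in muscle FAPs 2 to 5, at 658, 394, 491, 532 and 499 CPM in lung FAPs 1 to 5, and at 3.42, 2.74, 2.77 and 2.75 CPM in MEFs 1 to 4. The 3 groups did not overlap, and Cfb varied least of the 9 genes among muscle FAPs. It was 2.33-fold lower in the muscle FAPs than in the lung FAPs (log2 fold change of −1.22 with an SE of 0.12, edgeR adjusted p = 2.66e-06), and 75.8-fold above MEFs in the muscle FAPs (6.24, SE 0.079, adjusted p = 2.27e-13). The difference was 176-fold in the lung FAPs against MEFs (7.46, SE 0.14, edgeR adjusted p = 6.08e-14).

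Factor D, encoded by Cfd and also known as adipsin from its high level in fat cells, cleaves factor B. It was a scarce and uneven transcript here. Cfd stood at 0.204, 1.06, 0.230 and 0.539 CPM in muscle FAPs 2 to 5, at 12.3, 0.656, 5.75, 3.36 and 1.38 CPM in lung FAPs 1 to 5, and at 3 reads over all MEFs. Muscle FAP 3 lay above lung FAP 2, so both kinds of FAP overlapped. The fitted log2 fold change for muscle FAPs against lung FAPs was −3.19 (SE 0.88, edgeR adjusted p = 0.00488). It was −2.45 without lung FAP 1, −3.84 without muscle FAP 3 and −1.81 (edgeR adjusted p = 0.0477, the highest of a range from 7.85e-05) without lung FAP 1 and 3. Relative to the 3 MEF reads, the ratio was 30.6 in the muscle FAPs (95% counting interval 10.04 to 152) and 286 in the lung FAPs (97.6 to 1392), with edgeR adjusted p values of 0.00224 and 1.97e-05. The fitted log2 fold changes against MEFs, 4.68 and 7.88, became 5.54 and 8.73 without MEF 2, 4.02 for muscle without muscle FAP 3 and 7.13 for lung without lung FAP 1. Lung FAP 1, the library highest in Cfd, was also highest in the summed level of 7 adipocyte markers, at 134 CPM against 30.0 to 49.0 in the other lung FAPs. Lung FAP 3 had 5.75 CPM of Cfd at a sum of 35.0 CPM, and lung FAP 5 had 1.38 CPM of Cfd at a sum of 49.0 CPM. The adipocyte sums were 4.67 to 8.32 CPM in the muscle FAPs and 4.16 to 7.11 in the MEFs, and 6 of 6 tested adipocyte markers were lower in the muscle FAPs than in the lung FAPs. Adipoq, the hormone adiponectin, stood at 17.1 CPM in lung FAP 1 and between 2.86 and 3.49 CPM in the remaining lung libraries. Their part in the Cfd result was not tested.

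C2 and C4b form the convertase of the classical and lectin routes. With Cfb they lie in the major histocompatibility complex on chromosome 17 (mm10), all on the minus strand, at 34862604 to 34898265 for C2, 34728380 to 34743882 for C4b and 34856374 to 34862518 for Cfb. On that strand Cfb starts 86 bases past the end of C2, and the GENCODE M21 gene Gm20547, not analysed here, overlaps both on the same strand. C2 stood at 69.8, 91.1, 77.1 and 96.8 CPM in muscle FAPs 2 to 5, at 482, 282, 328, 381 and 347 CPM in lung FAPs 1 to 5, and at 3.999, 3.61, 3.61 and 4.41 CPM in MEFs 1 to 4. No groups overlapped. C2 was 4.35-fold lower in the muscle FAPs than in the lung FAPs (log2 fold change of −2.12 with an SE of 0.17, edgeR adjusted p = 5.00e-08). Against MEFs the level was 21.4-fold higher in the muscle FAPs (4.42, SE 0.13, edgeR adjusted p = 9.83e-12) and 93.1-fold higher in the lung FAPs (6.54, SE 0.14, adjusted p = 4.26e-13).

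C4b encodes mouse C4, whose fragment binds covalently to surfaces. It stood at 179, 164, 173 and 181 CPM in muscle FAPs 2 to 5, at 1352, 1036, 1398, 686 and 1226 CPM in lung FAPs 1 to 5, and at 0.776, 0.849, 0.500 and 0.225 CPM in MEFs 1 to 4. Lung FAP 4 was the lowest lung library and still lay above every muscle FAP. C4b was 6.54-fold lower in the muscle FAPs than in the lung FAPs (log2 fold change of −2.71 with an SE of 0.19, edgeR adjusted p = 7.14e-07), the largest fold among the members above 5 CPM in both groups. It was 297-fold above MEFs in the muscle FAPs (8.21, SE 0.39, edgeR adjusted p = 2.06e-11) and 1943-fold in the lung FAPs (10.92, SE 0.43, adjusted p = 2.38e-12). C4a, its neighbour 65210 bases away, is 96.1% identical over 5367 aligned bases of the longest GENCODE transcripts, so reads of the pair are uncertain where the counting could not split them. C4a stood at 1.09 ± 0.496 CPM in the muscle FAPs, 2.11 ± 0.641 in the lung FAPs and 0.152 ± 0.0561 in the MEFs.

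Masp1, which encodes serine proteases of the lectin route and lies on chromosome 16, ran the other way. Masp1 stood at 3.82, 3.79, 1.96 and 3.14 CPM in muscle FAPs 2 to 5, at 2.21, 1.60, 1.76, 2.09 and 0.843 CPM in lung FAPs 1 to 5, and at 55.7, 51.6, 54.9 and 64.6 CPM in MEFs 1 to 4. All MEFs lay above all FAPs, and muscle FAP 4 lay within the range of lung FAPs. Masp1 was 17.8-fold lower in the muscle FAPs than in the MEFs (log2 fold change of −4.16 with an SE of 0.23, edgeR adjusted p = 1.23e-09) and 33.3-fold lower in the lung FAPs than in the MEFs (−5.06, SE 0.25, adjusted p = 8.20e-11). Between the FAPs it was 1.87-fold higher in muscle (0.90, SE 0.33, edgeR adjusted p = 0.00573). That call was lost with limma-voom with sample weights (adjusted p = 0.0536) and with library size as the only scaling (0.50, edgeR adjusted p = 0.0801), and adjusted p values over all alternatives ran from 0.000673 to 0.0801. The gene gives several proteins by splicing, which counts per gene do not separate, and Rtp4 overlaps the gene on the opposite strand.

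C6 and C7 bind in turn as the membrane attack complex is built, and they lie near each other on chromosome 15. C7 stood at 781, 936, 749 and 506 CPM in muscle FAPs 2 to 5, at 2215, 1623, 2112, 1886 and 1986 CPM in lung FAPs 1 to 5, and at 1.55, 1.19, 0.727 and 0.184 CPM in MEFs 1 to 4. The groups did not overlap, with muscle FAP 5 the lowest FAP library. C7 was 2.64-fold lower in the muscle FAPs than in the lung FAPs (log2 fold change of −1.40 with an SE of 0.20, edgeR adjusted p = 0.00194). Against MEFs the level was 820.3-fold higher in the muscle FAPs (9.68, SE 0.64, edgeR adjusted p = 2.01e-10) and 2169-fold higher in the lung FAPs (11.08, SE 0.61, adjusted p = 6.80e-11), the highest fitted fold of the 9 genes.

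C6 was scarce where C7 was abundant. C6 stood at 0.175, 0.0296, 0.173 and 0.210 CPM in muscle FAPs 2 to 5, at 1.75, 4.60, 10.6, 0.532 and 2.32 CPM in lung FAPs 1 to 5, and at 1 read over all MEFs. Lung FAPs spread over 20.01-fold and did not overlap muscle FAPs. The fitted log2 fold change for muscle FAPs against lung FAPs was −4.73 (SE 0.80, edgeR adjusted p = 0.000307), and −3.94 without lung FAP 3 or −3.37 without lung FAP 2 and 3. Relative to the single MEF read, the ratio was 26.6 in the muscle FAPs (95% counting interval 4.25 to 1102) and 729.8 in the lung FAPs (131 to 28869.8). The edgeR adjusted p values were 0.0113 and 5.40e-06, and for muscle FAPs the call was lost with limma-voom with sample weights (adjusted p = 0.0895) and without MEF 2 and 4 (edgeR adjusted p = 0.0935), and kept without MEF 1, which held the read (0.0161, in a range of 0.00122 to 0.0935). The fitted log2 fold changes against MEFs, 4.07 and 8.80, became 5.46 and 10.20 without MEF 1, and that of the lung FAPs 8.02 without lung FAP 3. Lung FAP 3, highest in C6, was the library with the high lung epithelium sum and Lyz2 level. That sum was 96.0, 77.6, 28.7 and 16.7 CPM in lung FAPs 1, 2, 4 and 5, an order that C6 did not follow. The part of the epithelium markers and Lyz2 in the C6 result was not tested.

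Serping1 encodes the C1 inhibitor, a serpin that blocks the proteases of the classical and lectin routes. It lies on chromosome 2. Serping1 stood at 3844, 4134, 4156 and 4509 CPM in muscle FAPs 2 to 5, at 5572, 4087, 5293, 8183 and 5001 CPM in lung FAPs 1 to 5, and at 8.07, 8.89, 7.25 and 5.45 CPM in MEFs 1 to 4. Lung FAP 2 lay within the range of muscle FAPs, and lung FAP 4 far above the rest. Serping1 did not pass between the FAPs (log2 fold change of −0.44 with an SE of 0.17, edgeR adjusted p = 0.0707). It passed with the DESeq2 Wald test (−0.43, adjusted p = 0.0325) and with limma-voom with sample weights (−0.37, adjusted p = 0.0417). It also passed with upper-quartile scaling (−0.51, edgeR adjusted p = 0.0415) and with library size only (−0.84, edgeR adjusted p = 0.00118). The call was gained as well without lung FAP 2 (−0.52, edgeR adjusted p = 0.0274) and without lung FAP 2 and 3 (−0.59, edgeR adjusted p = 0.0239). Adjusted p values over all alternatives ran from 0.00118 to 0.176. Against MEFs the level was 561-fold higher in the muscle FAPs (9.13, SE 0.16, edgeR adjusted p = 6.95e-13) and 759-fold higher in the lung FAPs (9.57, SE 0.22, adjusted p = 4.72e-13).

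Levels of different genes were compared per kilobase of annotated exon (GENCODE M21). Serping1 and C3 led in both kinds of FAP, with Serping1 at 1789.5 ± 117 CPM per kilobase in the muscle FAPs and 2420.3 ± 659.8 in the lung FAPs. C3 stood at 977 ± 51.8 CPM per kilobase in the muscle FAPs and 2103 ± 572 in the lung FAPs, and C7 followed at 278 ± 66.5 and 734 ± 85.1. Among the 21776 genes with a length, Serping1 ranked 12 in the muscle FAPs and 3 in the lung FAPs, C3 ranked 39 and 8, and C7 ranked 181 and 33. Of the summed level per kilobase of the 9 genes, C3 made up 30.8% in the muscle FAPs and 36.6% in the lung FAPs, and Serping1 56.4% and 42.2%. In MEFs Masp1 led at 5.77 ± 0.564 CPM per kilobase, which was 45.5% of a small sum, ahead of Serping1 at 3.19 ± 0.634.

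**Figure D3:**
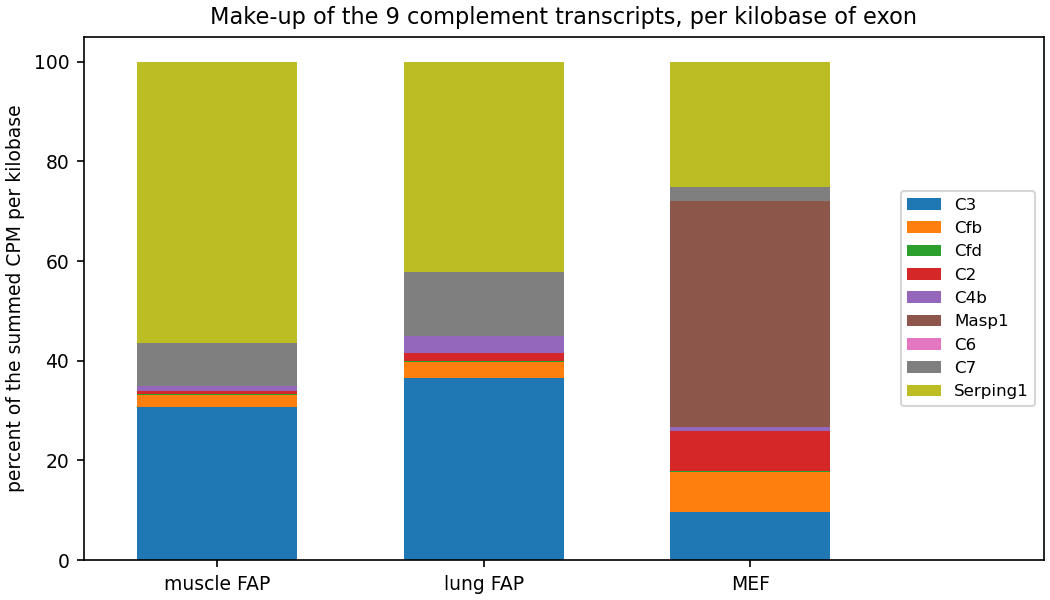
Share of each of the 9 genes in their summed mean CPM per kilobase of exon, in percent, for muscle FAPs, lung FAPs and MEFs. Serping1 and C3 fill most of the bars of both kinds of FAP, and Masp1 fills 45.5% of the MEF bar.

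Within lung FAPs the members did not all peak in the same library. Lung FAP 1 held the highest level of 6 members (C2, C3, C7, Cfb, Cfd and Masp1), lung FAP 3 that of C4b and C6, and lung FAP 4 that of Serping1. Lung FAP 2 held the lowest level of 6 members (C2, C3, C7, Cfb, Cfd and Serping1). Muscle FAPs were more even for C3, Cfb, C4b and Serping1, with coefficients of variation of 5.30%, 2.58%, 4.45% and 6.55%, against 27.2%, 18.5%, 25.4% and 27.3% in the lung FAPs. C7 was the reverse, at 24.0% in the muscle FAPs and 11.6% in the lung FAPs. These spreads are descriptions and were not tested. Without lung FAP 2 and 3, 8 members were lower and 1 was higher in the muscle FAPs than in the lung FAPs, and without lung FAP 1 and 3 the counts were 6 and 1. Over all genes, 3524 were lower and 3430 higher without lung FAP 2 and 3. Without lung FAP 1 and 3 those counts were 3639 and 3457.

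**Figure D4:**
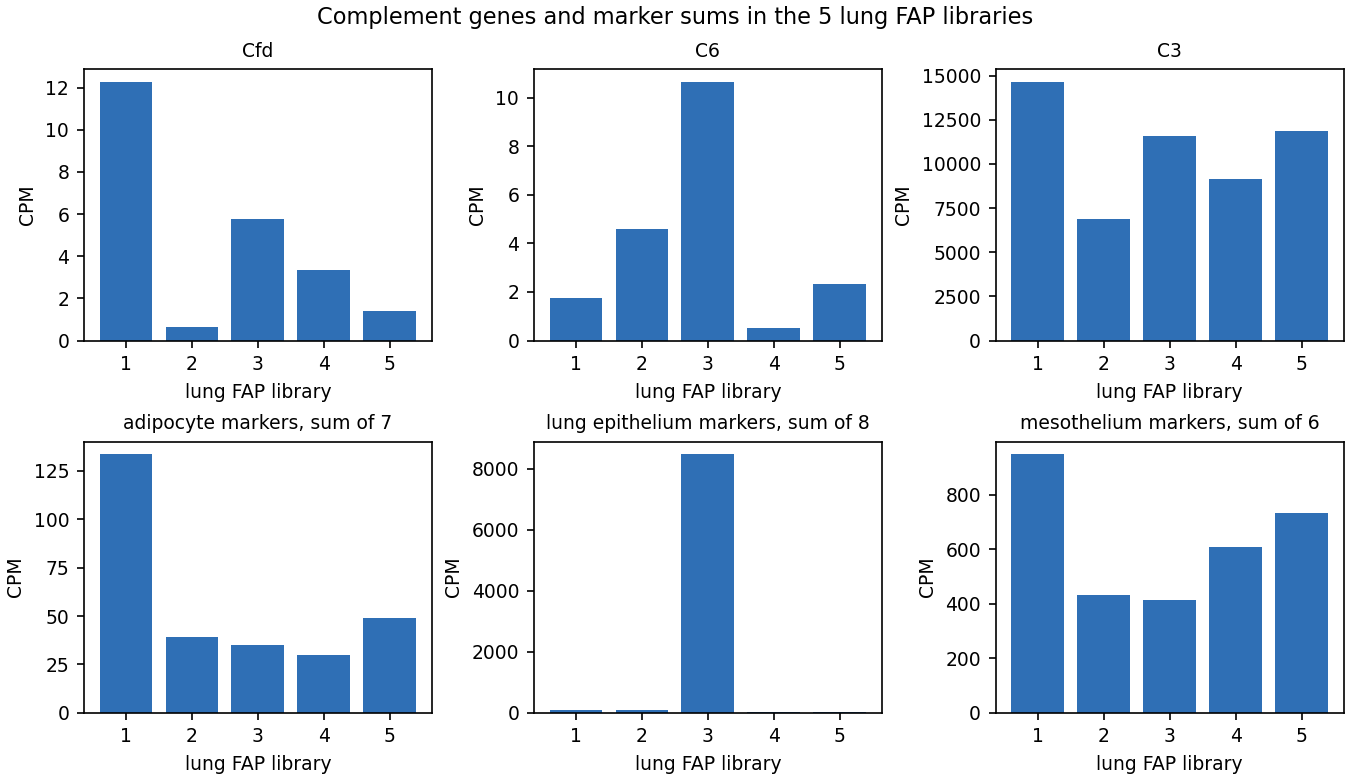
CPM of Cfd, C6 and C3 (upper row) and summed CPM of adipocyte, lung epithelium and mesothelium markers (lower row) in the 5 lung FAP libraries, with a bar for each. Cfd and the adipocyte sum both peak in lung FAP 1, and C6 and the lung epithelium sum in lung FAP 3.

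The rest of the pathway was read from a list of 46 further complement genes, of which 45 were counted and 33 could be tested. Of these 33, 10 were lower and 1 was higher in the muscle FAPs than in the lung FAPs and 22 did not pass (median log2 fold change −0.45), beside 25.0% of all genes lower and 23.2% higher. Against MEFs, 17 were higher, 10 lower and 6 did not pass in the muscle FAPs (median 1.57), and 21 were higher, 8 lower and 4 did not pass in the lung FAPs (median 2.70), beside 36.1% and 37.8% of all genes higher and 37.3% and 36.6% lower. Library size as the only scaling gave 19 lower genes between the FAPs, where it called 48.4% of all genes lower.

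The C1 proteases and C1q together form the first complex of the classical route. C1s, a protease of that complex, averaged 1680.3 ± 125 CPM in the muscle FAPs, 1834 ± 233 in the lung FAPs and 3.79 ± 0.649 in the MEFs, and did not pass between the FAPs (log2 fold change −0.13, edgeR adjusted p = 0.464; −0.53 and 0.00349 with library size as the only scaling). C1ra, which activates C1s, averaged 556 ± 80.1, 739 ± 115 and 2.70 ± 0.322 CPM in the same order of groups. It was lower in the muscle FAPs than in the lung FAPs (−0.41, SE 0.14, edgeR adjusted p = 0.0219), a call lost without muscle FAP 3, muscle FAP 4 or lung FAP 1 (adjusted p = 0.0639, 0.0646 and 0.0534, in a range of 8.45e-05 to 0.0671). The related C1rl averaged 17.1 CPM in the muscle FAPs, 17.4 in the lung FAPs and 0.837 in the MEFs. The chains of C1q ran the other way, higher in the MEFs. C1qb averaged 0.0515 CPM in the muscle FAPs, 0.0557 in the lung FAPs and 41.3 ± 18.4 in the MEFs (−9.56 for muscle FAPs against MEFs, edgeR adjusted p = 4.16e-09), C1qc 0.0741, 0.0236 and 25.9 ± 11.5, and C1qa 0.0447, 0.197 and 17.8 ± 8.10. Of 8 tested blood markers, 8 were lower in the muscle FAPs than in the MEFs, beside 37.3% of all genes. In the lung FAPs against MEFs 5 were lower and 3 did not pass, beside 36.6% of all genes lower. Tyrobp averaged 0.0221 CPM in the muscle FAPs, 4.68 in the lung FAPs and 25.1 in the MEFs. Csf1r averaged 1.43, 8.94 and 35.1 CPM in that order. The 3 that did not pass between lung FAPs and MEFs were Cd14, Ptprc and Lyz2. Cd14 averaged 10.8 CPM in both the lung FAPs and the MEFs. Ptprc averaged 0.0442 CPM in the muscle FAPs, 10.5 ± 6.25 in the lung FAPs and 8.08 ± 3.81 in the MEFs. Lyz2 averaged 0.531, 128 ± 272 and 205 ± 106 CPM in that order. Between the FAPs all 8 blood markers were lower in muscle, beside 25.0% of all genes, while C1qa, C1qb and C1qc did not pass. MEF 3 was the lowest MEF both in the blood sum, at 149 CPM, and in C1qa, C1qb and C1qc, and the part of these markers in the result was not tested.

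Of 7 tested receptors for complement fragments, none was higher and 5 were lower in the muscle FAPs than in the MEFs, and 1 was higher and 4 were lower in the lung FAPs than in the MEFs, where 37.3% and 36.6% of all genes were lower. C3ar1, the receptor of C3a, had 11 reads over the muscle FAPs and 17 over the lung FAPs, and averaged 35.3 ± 13.2 CPM in the MEFs (−8.72 for muscle FAPs against MEFs, edgeR adjusted p = 3.96e-09). C5ar1, the receptor of C5a, averaged 0.536, 1.29 and 11.4 ± 4.57 CPM. The chains of complement receptor 3, Itgam and Itgb2, averaged 0.0294 and 0.747 CPM in the muscle FAPs, 4.95 and 5.52 in the lung FAPs and 11.8 and 12.9 in the MEFs. Both were lower in the muscle FAPs than in the lung FAPs, with log2 fold changes of −7.24 and −2.88. Itgam stood at 8.73 and 8.76 CPM in lung FAP 2 and 3 and at 1.17 to 3.06 CPM in the remaining lung libraries, and its value was −6.22 without both. Between lung FAPs and MEFs the call of Itgam (−1.26, edgeR adjusted p = 0.0438) was lost under most alternatives, among them the replicate block (0.123), in a range of 0.00049 to 0.188. That of Itgb2 (−1.23, edgeR adjusted p = 0.00768) was lost without MEF 2 and 4 (0.0665, the highest of a range from 0.000766). Cd93, carried by endothelium and myeloid cells, averaged 0.638 CPM in the muscle FAPs, 20.2 ± 26.6 in the lung FAPs and 9.68 ± 4.47 in the MEFs, with 66.8 CPM in lung FAP 2. The summed level of 10 blood markers was 10.6 to 12.1 CPM in the muscle FAPs, 39.1 to 668 in the lung FAPs and 149 to 540 in the MEFs, and their part in these results was not tested.

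All 4 tested soluble regulators were higher in both kinds of FAP than in the MEFs, as were 6 of 8 membrane regulators in the muscle FAPs and 7 of 8 in the lung FAPs, beside 36.1% and 37.8% of all genes. Vtn, vitronectin, which keeps terminal complexes off membranes, was the 1 higher gene, at 206 ± 26.9 CPM in the muscle FAPs, 9.37 ± 10.7 in the lung FAPs and 0.0714 ± 0.0439 in the MEFs (4.45, SE 0.56, edgeR adjusted p = 6.68e-05; 5.49 without lung FAP 2, its highest lung library at 28.4 CPM). Clusterin, Clu, another inhibitor of terminal complexes, averaged 179.8 ± 64.9, 158 ± 27.3 and 16.0 ± 1.83 CPM and did not pass between the FAPs (0.19, edgeR adjusted p = 0.439; −0.22 under library size only and −0.10 without muscle FAP 3). On the membrane, Cd55, which speeds convertase decay, averaged 178 ± 29.5 CPM in the muscle FAPs, 204 ± 74.0 in the lung FAPs and 32.7 ± 3.08 in the MEFs. Cr1l, the rodent regulator Crry, averaged 116 ± 13.4, 98.4 ± 12.4 and 38.9 ± 1.28 CPM. Cd59a, which blocks the attack complex, averaged 2.67 ± 0.776, 18.03 ± 2.55 and 5.81 ± 1.42 CPM and was 6.74-fold lower in the muscle FAPs than in the lung FAPs (−2.75, SE 0.23, edgeR adjusted p = 1.95e-07).

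Properdin and C5 completed the genes above 5 CPM. Cfp, properdin, which stabilises the alternative convertase, averaged 3.12 ± 0.911 CPM in the muscle FAPs, 5.02 ± 1.14 in the lung FAPs and 7.93 ± 2.49 in the MEFs. Hc, which encodes C5, stood at 0.118 to 0.490 CPM in the muscle FAPs, at 115 CPM in lung FAP 3, at 0.0602 to 0.798 CPM in the remaining lung libraries and at 0.0727 to 0.266 CPM in the MEFs. Its log2 fold change for muscle FAPs against lung FAPs was −6.49 (edgeR adjusted p = 0.0343) and −0.69 (adjusted p = 0.459, in a range of 0.0192 to 0.512) without lung FAP 3. That library was also the one with the high lung epithelium sum and Lyz2 level, and their part was not tested. Of the other late terminal genes C8a, C8b and C9 were too low to test.

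**Figure D5:**
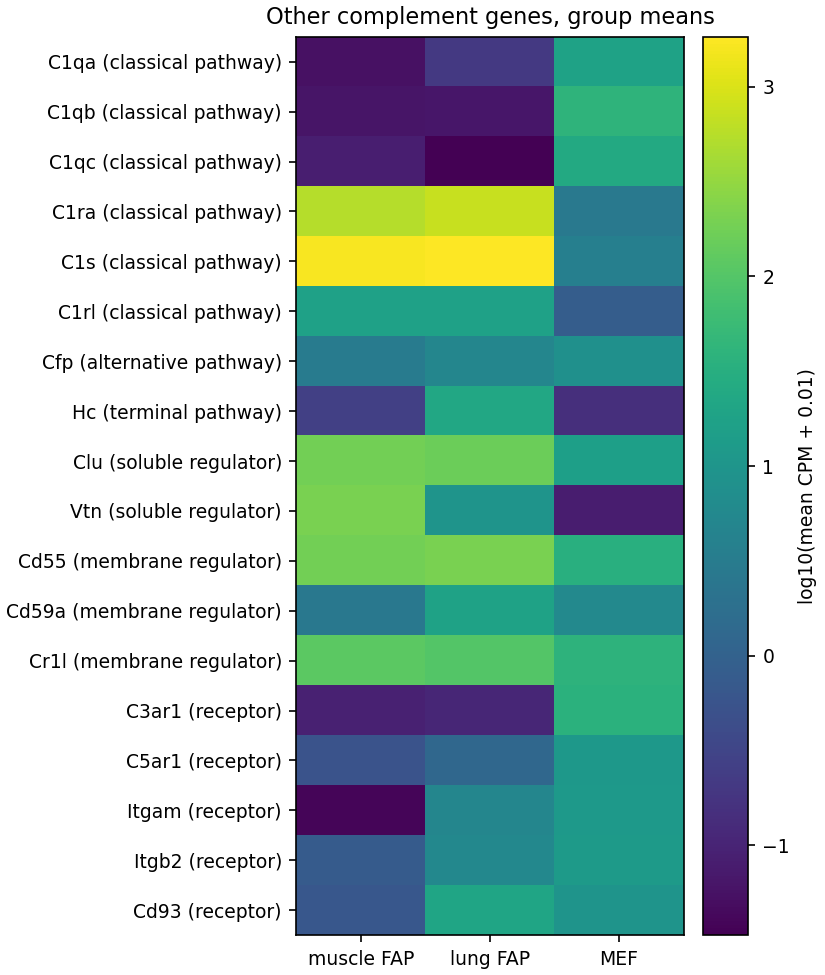
Mean level of 18 other complement genes with at least 5 CPM in a group, as log10(CPM + 0.01), for muscle FAPs, lung FAPs and MEFs, with the role of each in brackets. C1s, C1ra, Clu, Cd55 and Cr1l are brighter in both kinds of FAP, and C1qa, C1qb, C1qc and C3ar1 in the MEFs.

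The genes most like each member were ranked by Pearson correlation of log2 CPM over all 13 libraries, among about 9943 genes of at least 10 CPM in a group. The libraries share their 3 groups, so the values largely follow the group means, and they are a description. C3 lay closest to Clec3b (0.998) and Pi16 (0.9979), C7 to C3 (0.9978) and Pi16 (0.9961), and Serping1 to Slc43a3 (0.9994) and C1ra (0.9989). Cfb lay closest to Serpina3n (0.9975) and Cpxm1 (0.9973), C2 to Gabra3 (0.9979) and Gpc3 (0.9966), and C4b to Fmo5 (0.9965). Masp1 lay closest to Nrg1 (0.9949) and Cdkn2a (0.9932), which averaged 20.1 and 51.3 CPM in the MEFs. The closest genes of Cfd (Aifm2, 0.9526, and Rhpn2, 0.9517) and of C6 (Gpsm1, 0.9537, and Bmp3, 0.9533) were less alike. Pi16 averaged 1182 CPM in the muscle FAPs, 3228 in the lung FAPs and 1.72 in the MEFs.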

How the data were processed

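The authors deposited 1 read count per gene symbol and library for 23418 genes in 13 libraries, with 0 columns of other samples and 0 rows that name no gene. The submitters' processing notes name Bowtie2 2.1.0.0, HTSeq, edgeR and the build mm10. Gene annotation, strand and filters are details not given in the sources used here. Genes were kept by filterByExpr, which left 15412, and fitted with edgeR 4.0.16 in R 4.3.3 (TMM, quasi-likelihood, robust dispersion) over all libraries, with group as the only factor and Benjamini-Hochberg adjustment over all genes kept. CPM used TMM-scaled sizes of the kept genes. SEs come from log2 CPM with a prior count of 2. Against a group of 1 to 3 reads the ratio carries an exact 95% interval from counting, which covers counting error only. The members and lists were chosen with earlier results of these data known. All 9 members are named in each comparison, other complement genes where a group averaged at least 5 CPM, and for each member its 2 most correlated genes; 2 genes that this rule takes are not reported here. Library pairs within a group differed by far more than counting noise (chi-square per degree of freedom of at least 24.0). The edgeR script was tested on simulated data. Gene positions and exon lengths are from GENCODE M21 (GRCm38), which gave a length for 93.0% of symbols. Alternatives were DESeq2 1.42.0 size factors and Wald test, upper-quartile or library-size scaling, other filters, limma-voom with sample weights (limma 3.58.1), compared groups alone, the replicate block and left-out libraries.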

Additional observations from a re-analysis of the deposited data

Results flagged for a closer look

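Among 84 sets of library values (9 members and 19 other complement genes in 3 groups), 7 held a library far from the others of its group, where chance gives about 1 in 20. For the members these were Cfb and C6 in MEF 1. Cfb stood at 3.42 CPM there (141 reads) against 2.74 to 2.77 in the other MEFs (122 to 134 reads). C6 stood at 0.0242 CPM, which is a single read, against none. Any value beside libraries that all hold none is flagged by this rule, so the C6 flag was fixed in advance. Among the other genes, Hc stood at 115 CPM in lung FAP 3 against at most 0.798 in the other lung FAPs. Vtn stood at 28.4 CPM in lung FAP 2 against 3.75 to 6.74, and Cd93 at 66.8 CPM in lung FAP 2 against 3.41 to 17.1. Cfp was low in MEF 3, at 4.20 CPM against 8.99 to 9.32, and Cd55 in MEF 4, at 28.1 CPM against 33.8 to 34.9.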

How the results depend on the processing

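Over 25 alternatives and 27 log2 fold changes of the members, 667 values were recomputed, of which 656 kept direction and call, 5 lost the call, 6 gained it (all Serping1 in the muscle FAPs against lung FAPs) and 0 reversed. The lost calls were Masp1 and C3 in the muscle FAPs against lung FAPs and C6 in the muscle FAPs against MEFs, under the settings named in the report. The count of members higher in the muscle FAPs than in the lung FAPs became 0 with limma-voom with sample weights, which changes both the test and the weighting of libraries, and with library size only. With library size only the calls over all genes were 1730 higher and 7455 lower there. A filter asking for 5 CPM or more in 4 libraries left C6 and Cfd untested. The fit of the muscle FAPs and MEFs alone, without the lung FAPs, left both untested too. Their calls for muscle FAPs against MEFs thus need the lung FAP libraries for the genes to enter the test. Same-numbered libraries did not deviate together (correlations −0.05 to 0.06). The labels do not say whether they were paired. These correlations cannot decide it, since the deviations also hold differences of single libraries. With the replicate number as a block, 7 members were lower and 1 was higher in the muscle FAPs than in the lung FAPs, and 8 higher and 1 lower in each kind of FAP against MEFs, as without it. Over all genes that fit called 3453 lower and 3352 higher between the FAPs. Against MEFs it called 5263 higher and 5554 lower in the muscle FAPs, and 5535 and 5586 in the lung FAPs. Cfd was at −2.40 between the FAPs in that fit. Leaving out 1 library at a time kept 7 or 8 members lower and 1 higher between the FAPs. Among other complement genes that had not passed, C1rl, which ran from −0.15 to 0.10 with single libraries left out, turned to 0.02 with the replicate block, 0.04 without muscle FAP 3, 0.02 without muscle FAP 5 and 0.10 without lung FAP 5. Clu turned to −0.22 and Cr1l to −0.17 with library size only, Clu to −0.10 without muscle FAP 3 and Cd55 to 0.04 without lung FAP 4; with single libraries left out Clu ran from −0.10 to 0.30 and Cd55 from −0.33 to 0.04. Cd93 in the lung FAPs against MEFs turned to −0.21 with the weighted limma-voom and −0.20 without lung FAP 2, in a range of −0.20 to 1.34 with single libraries left out. The causes were not tested. At these depths Cfd and C6 in the MEFs rest on 3 reads and 1 read, so their ratios are known only within wide counting intervals. Per kilobase, the longest transcript in place of all exons raised Serping1 to 2353 in the muscle FAPs and 3183 in the lung FAPs, and Serping1, C3 and C7 kept the top 3 places in both.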

Other observations

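Masp2, the partner of Masp1 in the lectin route, averaged 0.279 CPM in the muscle FAPs and 0.414 in the lung FAPs and could not be tested. Of 7 lectin route genes besides Masp1, 3 could be tested, and Colec11, a soluble collectin, was lower in the muscle FAPs (0.578 CPM) than in the lung FAPs (3.09 CPM; log2 fold change −2.41). Of 6 hepatocyte markers, Alb had no read in either kind of FAP, and Ahsg averaged 0.464 CPM in the muscle FAPs and 10.6 in the lung FAPs, with 2 reads over all MEFs. The summed level was 0.547 to 1.54 CPM in the muscle FAPs, 7.62 to 16.0 in the lung FAPs and 2.29 to 4.30 in the MEFs.

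Levels are given for 2 genes that overlap members on the opposite strand; other overlapping genes were not analysed here. Rtp4, which overlaps Masp1, averaged 33.8 ± 28.8 CPM in the muscle FAPs, 20.3 ± 3.75 in the lung FAPs and 1.53 ± 0.599 in the MEFs. Zbtb12, which overlaps C2, averaged 1.26 ± 0.266, 4.36 ± 1.15 and 5.62 ± 0.520 CPM. Without a stated strand setting, reads in the shared bases cannot be told apart.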
